A study of Mus musculus with 23 samples.

Results

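Among the 11 WT libraries of hippocampal CD11b+ cells, 4 held far more *Ttr* reads than the rest, and these 4 Ttr-high libraries were compared with the other 7, called Ttr-low. The libraries were selected on their own *Ttr* counts: a library was Ttr-high when *Ttr* exceeded 100 CPM (counts scaled to a common library total), and *Ttr* itself was left out of every test. The 4 Ttr-high libraries were 2 of the 6 Control WT and 2 of the 5 *Slc11a2* KD WT libraries, out of 23 libraries in the series. Because the split was chosen by a measured value, the p-values below describe how other genes went with it in these 11 libraries, and they test no treatment.

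The study measured the RNA of CD11b+ cells, which in brain are mostly microglia, from the hippocampus of female mice by poly(A)-selected bulk sequencing. Every mouse carried floxed *Slc11a2*, the gene of the iron importer DMT1, and a tamoxifen-inducible Cre driven by the *Cx3cr1* promoter, which is active in microglia and other mononuclear phagocytes, on a mixed 129S and C57BL/6J background. *Slc11a2* KD mice had been gavaged daily for 5 days with 4 mg tamoxifen when 5 to 6 months old, Control mice with corn oil, and were killed when 15 to 18 months old. WT mice lacked the APP/PS1 transgenes carried by the other 7 Control and 5 *Slc11a2* KD mice. Cells were freed with papain from both hippocampi after perfusion, passed through a Percoll gradient and bound to CD11b magnetic beads, a step that enriches but does not purify.

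The choroid plexus is a folded tissue in the brain's ventricles, and one of its fronds lies along the hippocampus in the lateral ventricle. Its cuboidal epithelium secretes cerebrospinal fluid and makes transthyretin, the carrier of thyroxine and retinol that *Ttr* encodes, in very large amounts. Beneath the epithelium lie fibroblasts, fenestrated capillaries and macrophages, and the neighbouring ventricle wall is lined by ciliated ependymal cells. Bulk libraries cannot tell more cells of a type from more RNA per cell.

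*Ttr* was at 1078 CPM in Control WT 0012, 647 in Control WT 0015, 429 in *Slc11a2* KD WT 0019 and 291 in *Slc11a2* KD WT 0022. The nearest library below the threshold was *Slc11a2* KD WT 0001 at 30.5 CPM, and the nearest above it was 0022. *Slc11a2* KD WT 0003 and 0002 held 1.23 and 0.362 CPM, while Control WT 0006, 0008, 0009 and 0014 had no *Ttr* count, where 3 counts would have been between 0.0677 and 0.0964 CPM. The WT libraries held 31128643 to 46297207 counts on genes, and the Ttr-high ones (32186866 to 46297207) lay within that range. Of the labels, library numbers 19 and 22 fell in the run 18 to 23 and the Ttr-low *Slc11a2* KD WT libraries were numbers 1 to 3, so within the knockdown *Ttr* class and number run cannot be told apart. The 2 Ttr-high Control WT libraries had numbers 12 and 15, on either side of the Ttr-low number 14.

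**Figure D1:**
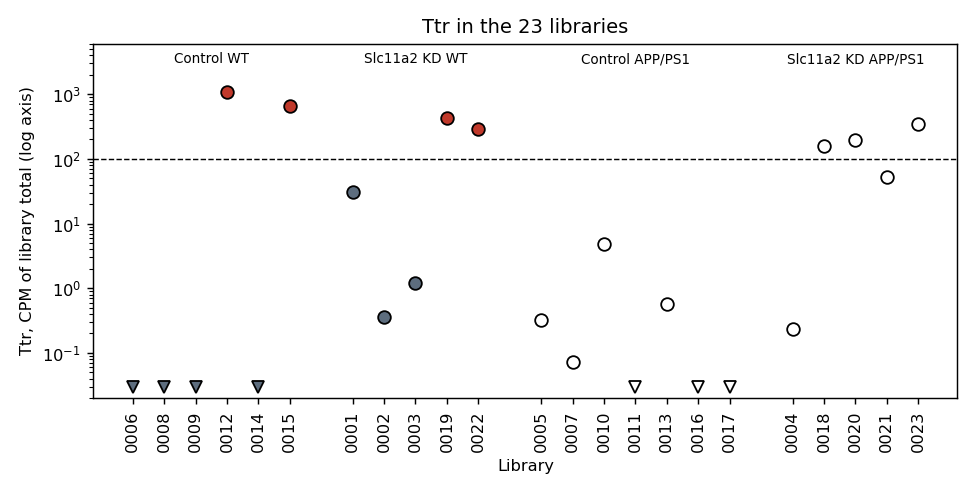
*Ttr* in CPM of the library total (log axis) in each of the 23 libraries, by group; red circles are Ttr-high WT, grey symbols Ttr-low WT, open symbols APP/PS1, triangles libraries with no count drawn at the bottom, and the dashed line the threshold of 100 CPM. The 4 Ttr-high libraries lay between 291 and 1078 CPM and the highest Ttr-low library at 30.5 CPM.

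The genes higher in the Ttr-high libraries were led by the choroid plexus epithelium. Of 17126 genes tested with edgeR's quasi-likelihood test, 66 were higher (0.385%) and 11 were lower (0.0642%) at an adjusted p under 0.05. In 63 of the 66 every Ttr-high library exceeded every Ttr-low library, 12 had no count in any Ttr-low library, and 45 averaged under 1 CPM in Ttr-low. Of 43 tested members of a list of choroid plexus epithelial genes, 27 were higher, 0 were lower and 16 did not pass, beside 0.385% of all genes higher. The list's median log2 fold change was 6.40, and the median of all genes tested was 0.0067. With genes absent from Ttr-low set at the bound that 3 counts per library allow, the list's median was 6.15. The filter on low counts lets genes through by their counts in the Ttr-high libraries, which favours positive fold changes in this list. Of its 44 measured members, 6 had no count in any Ttr-low library. Those of the 6 that were tested passed the filter by the Ttr-high libraries alone, so their sign was fixed. Without 0019, 38 genes were higher, and over the fits that left out 1 library each the choroid count ran from 20 (without 0019) to 30 (without 0022), with 0 lower in each. With the *Ttr* threshold at 20 CPM, which puts 0001 among the Ttr-high libraries, 11 of 43 were higher, beside 0.105% of all genes. In Control WT alone 6 of 27 were higher, beside 0.105% of all genes. DESeq2 called 235 genes higher (1.37%) and 256 lower (1.49%). The list and the split rest on the same tissue, since *Ttr* is itself a product of this epithelium, so the count describes the split and is no independent evidence for it.

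**Figure D2:**
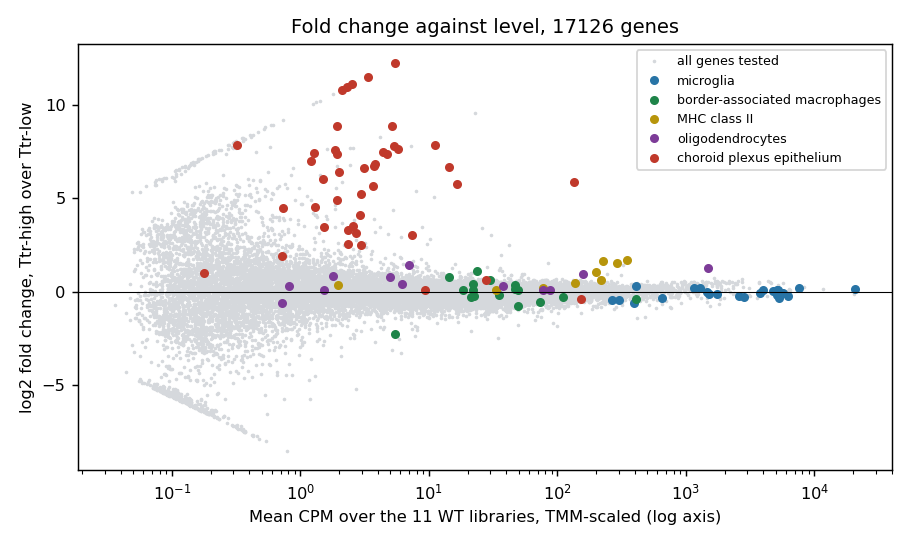
Log2 fold change of Ttr-high over Ttr-low libraries against the mean CPM over the 11 WT libraries (log axis), one point per gene tested, with 5 lists in colour. Choroid plexus epithelial genes (red) had a median of 6.40 and microglial genes (blue) one of -0.07; the choroid genes *Slc12a2* (-0.39), *Trpv4* (0.08) and *Cab39l* (0.61) lay near 0.

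Levels below are CPM after TMM scaling, a correction of library totals, and fold changes compare Ttr-high with Ttr-low with the knockdown label as a term. Every count of list members higher in that comparison stands beside the same 0.385% of all genes. Among the called genes of the choroid list, *Enpp2* was the most abundant. It encodes autotaxin, which makes lysophosphatidic acid, and stood at 771, 300.2, 270.1 and 91.6 CPM in 0012, 0015, 0019 and 0022. Its 7 Ttr-low values ran from 1.14 to 18.3 CPM with a median of 5.58, so the classes did not overlap, and the log2 fold change was 5.88 ± 0.66 (SE, adjusted p = 0.000679). Within Ttr-low, *Enpp2* was at 18.3, 10.5 and 10.5 CPM in the 3 *Slc11a2* KD WT libraries and between 1.14 and 5.58 in the 4 Control WT libraries.

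*Igfbp2*, a binding protein for insulin-like growth factors, was at 78.4, 43.6, 38.9 and 13 CPM in 0012, 0015, 0019 and 0022 and between 0 and 3.74 in Ttr-low (log2 fold change 5.75 ± 0.71, SE, adjusted p = 0.00141). *Kl* encodes Klotho, the FGF23 co-receptor that is also shed into the fluid. It was at 81.2, 33.7, 33.7 and 7.39 CPM, against 2.09 in 0001, 0.649 in 0014 and no count in the other Ttr-low libraries (6.68 ± 1.09, SE, adjusted p = 0.0105). The same order, 0012 highest and 0022 lowest, held in both. *Spint2*, a Kunitz-type inhibitor of serine proteases, had the smallest adjusted p of all genes (9.77e-05), with 47.4, 27.1, 31.8 and 7.81 CPM against 0.468 to 1.44 in Ttr-low. *Sostdc1*, an antagonist of BMP and Wnt signals, was at 24.8, 14.2, 15.8 and 7.22 CPM and had counts in 0001 alone (0.664 CPM) among Ttr-low libraries. Of 18 tested genes in a list of choroid secreted proteins and hormones, 9 were higher and 0 lower, beside 0.385% of all genes higher, with a median log2 fold change of 2.59. With the *Ttr* threshold at 20 CPM 5 of 18 were higher and 0 lower, beside 0.105% of all genes higher. In *Slc11a2* KD WT alone 4 of 13 were higher and 2 lower, beside 3.56% and 6.24% of all genes. The list also holds genes that microglia transcribe strongly, and its summed level was 19596 to 21297 CPM in Ttr-high and 17288 to 26034 in Ttr-low.

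Transporters of ions and water made up the next group, 10 higher and 0 lower of 20 tested, beside 0.385% of all genes higher (median log2 fold change 2.80). With the *Ttr* threshold at 20 CPM 6 of 20 were higher, beside 0.105% of all genes. In Control WT alone 2 of 13 were higher, beside 0.105% of all genes, and in *Slc11a2* KD WT alone 3 of 18, beside 3.56%. *Aqp1*, the apical water channel, was at 27.4, 13, 15.5 and 4.29 CPM in 0012, 0015, 0019 and 0022 and had no count in any Ttr-low library. With 3 counts per Ttr-low library as a floor, *Aqp1* was at least 186-fold higher. *Slc4a5*, a sodium bicarbonate cotransporter, was likewise absent from all 7 and was at 13, 5.66, 5.79 and 0.985 CPM in Ttr-high, at least 78.8-fold higher. *Clic6*, of the chloride intracellular channel family, ranged from 5.12 to 27.1 CPM and *Kcne2*, a potassium channel subunit, from 5.17 to 21, each with counts in no Ttr-low library but 0001. *Car12*, a membrane carbonic anhydrase, followed the same pattern with 3.5 to 27.9 CPM. *Atp1b1*, the beta subunit of the sodium pump, was present in every library, at 28.3, 19.9, 14 and 4.88 CPM against 1.43 to 2.49 (3.04 ± 0.35, SE, adjusted p = 0.000826). *Kcnj13*, a potassium channel, was at 1.28 CPM in 0022 and 1.48 in 0001, so the classes overlapped and it did not pass (adjusted p = 0.066). *Slc12a2*, the NKCC1 cotransporter, is found in many cells, was at 94.3 to 146 CPM against 132 to 189 and did not pass.

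Solute carriers and receptors gave 8 higher and 0 lower of 19 tested, beside 0.385% of all genes higher (median 1.73). With the *Ttr* threshold at 20 CPM 2 of 19 were higher, beside 0.105% of all genes. In Control WT alone 1 of 15 was higher, beside 0.105% of all genes, and in *Slc11a2* KD WT alone 4 of 16, beside 3.56%. *Folr1*, the folate receptor through which folate enters cerebrospinal fluid, was at 56.9, 25.4, 29.7 and 10.1 CPM, against 0.344 in 0001, 0.51 in 0014 and no count in 5 Ttr-low libraries (7.83 ± 0.82, SE, adjusted p = 0.000482). *Prlr*, the prolactin receptor, was absent from all Ttr-low libraries and at 20.9, 7.28, 7.85 and 0.714 CPM in Ttr-high, at least 114-fold higher, with 0022 well below the other 3. *Htr2c*, a serotonin receptor that the choroid epithelium carries densely, was at 23.2, 11.8, 17.5 and 5.72 CPM and had counts in 0001 alone of Ttr-low (0.541 CPM). *Slc29a4*, a monoamine transporter, was at 9.99, 4.89, 5.51 and 0.764 CPM and at 0.0492 in 0001 only. *Slc16a8*, a lactate transporter, and *Slc2a12*, a glucose transporter, were also higher, at 3.13 to 13.2 and 3.42 to 20.8 CPM. *Steap1*, of a family of metalloreductases, had no count in Ttr-low and was at least 71.1-fold higher. Its relative *Steap2* was the only one of 19 tested iron-handling genes that was higher, at 9.69, 2.55, 4.64 and 0.517 CPM against 0.148 in 0001 and 0 in the others. *Slc11a2* itself was at 33.2 to 39.5 CPM in Ttr-high and 28.2 to 45.5 in Ttr-low.

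**Figure D3:**
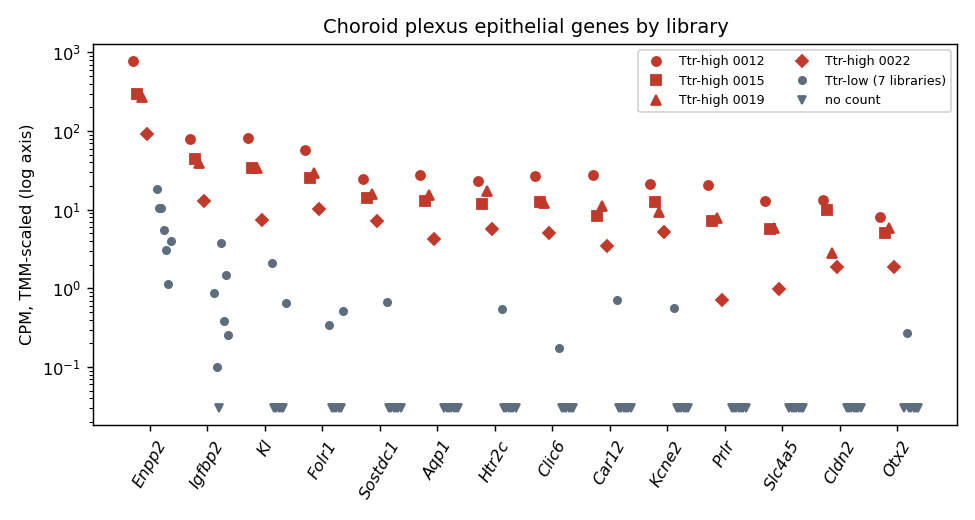
CPM after TMM scaling (log axis) of 14 choroid plexus epithelial genes in each WT library; red symbols are the 4 Ttr-high libraries, grey circles the Ttr-low libraries, and grey triangles at the bottom libraries with no count. In each gene shown all 4 red symbols lie above all grey ones, and 0022 (diamond) is the lowest of the 4.

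Junction proteins, keratins and regulators of the epithelium were sparser. Of 11 tested junction and keratin genes, 1 was higher, *Cldn2*, the pore-forming claudin of this epithelium. It was at 13.2 CPM in 0012, 9.83 in 0015, 2.8 in 0019 and 1.85 in 0022, and without a count in Ttr-low (at least 85.8-fold higher). *Cldn1*, another claudin, did not overlap between classes (3.23 to 10.8 against 0 to 1.43 CPM) yet did not pass (adjusted p = 0.0615). *Krt18*, a simple-epithelium keratin, was at 0.0246 CPM in 0022, within the Ttr-low values of 0 to 0.41. Of 8 transcription factors 1 was higher, *Otx2*, the homeobox gene that specifies choroid plexus, at 8.19, 5.13, 5.84 and 1.87 CPM against 0.274 in 0002 and 0 in the other Ttr-low libraries (7.37 ± 1.14, SE, adjusted p = 0.0076). *Msx1* (2.81 to 11 against 0 to 1.21 CPM) and *Lmx1a* (0 to 1.84 against 0) did not pass.

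The windows before the start sites of these genes were searched for the core of the OTX2 motif, TAATCC, on both strands. It was in 4 of 43 windows of the choroid list (9.3%), in 5 of 64 windows of genes called higher (7.81%) and in 860 of all 13719 tested protein-coding genes (6.27%). The short RFX motif GTTGCC was in 6.98%, 14.1% and 9.85% of the same sets and the FOXJ1 motif GTAAACA in 2.33%, 1.56% and 2.29%. Each window holds the 250 bases before the annotated start of the canonical transcript (GRCm39, GENCODE), outside the transcript. Of the 27 called genes of the list only *Wfdc2* and *Trpm3* had the core, and their windows are printed 5′ to 3′ on the gene's strand with TAATCC in capitals. *Enpp2*, the most abundant of the 27, has none and is shown beside them. A match or its absence is a description of these letters only. The windows lie at chr2:164404132-164404381 (plus strand), chr19:22669900-22670149 (plus strand) and chr15:54784107-54784356 (minus strand).
Wfdc2: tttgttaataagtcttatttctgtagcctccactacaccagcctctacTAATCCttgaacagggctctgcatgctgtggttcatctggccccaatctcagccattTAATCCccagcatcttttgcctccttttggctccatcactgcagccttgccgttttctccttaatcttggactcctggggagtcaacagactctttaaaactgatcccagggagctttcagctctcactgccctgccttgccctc
Trpm3: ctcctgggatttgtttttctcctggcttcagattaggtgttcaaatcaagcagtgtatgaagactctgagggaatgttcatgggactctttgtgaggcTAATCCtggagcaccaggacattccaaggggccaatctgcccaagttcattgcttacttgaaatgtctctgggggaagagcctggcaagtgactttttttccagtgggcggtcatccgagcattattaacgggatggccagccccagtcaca
Enpp2: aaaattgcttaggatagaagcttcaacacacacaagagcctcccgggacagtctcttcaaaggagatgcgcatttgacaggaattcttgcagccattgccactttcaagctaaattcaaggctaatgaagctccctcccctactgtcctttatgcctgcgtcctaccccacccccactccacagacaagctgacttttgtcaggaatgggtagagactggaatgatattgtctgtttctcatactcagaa
In *Wfdc2*, which encodes a secreted whey acidic protein domain protein, the cores start 202 and 145 bases before the start site, and in *Trpm3*, a cation channel gene, the core starts 152 bases before it. *Wfdc2* was at 3.98, 5.26, 2.65 and 1.97 CPM in 0012, 0015, 0019 and 0022 and *Trpm3* at 9.69, 5.13, 4.82 and 1.85, both near 0 in Ttr-low (at most 0.149 and 0.209 CPM).

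The Ttr-high libraries differed from each other in the amount of choroid transcripts, and for some genes in their proportions. The 25 called choroid genes that averaged under 1 CPM in Ttr-low took 0.0576% of all counts in 0012 (Wilson 95% interval 0.0569 to 0.0584), 0.0272% in 0015 (0.0267 to 0.0278), 0.0270% in 0019 (0.0265 to 0.0275) and 0.00786% in 0022 (0.00761 to 0.00812). In 0001 they took 0.000728% (0.00065 to 0.000816). These intervals cover counting error only. Of the counts of these 25 genes, *Igfbp2* took 13.9% in 0012, 16.2% in 0015, 14.2% in 0019 and 14.5% in 0022, and *Folr1* took 10.1%, 9.42%, 10.8% and 11.3%. *Kl* took 14.4%, 12.5%, 12.3% and 8.24%, and *Prlr* 3.72%, 2.7%, 2.86% and 0.797%, so 0022 held less of both for its amount. *Cldn2* took 3.65% in 0015 and 1.02% in 0019. *Ttr* per *Enpp2* count was 1.37 in 0012, 2.13 in 0015, 1.61 in 0019 and 3.63 in 0022. Of the 66 genes higher, 0012 was the highest Ttr-high library in 52 and 0022 the lowest in 53.

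Of the lists for other cells of the ventricle and its plexus, the ependymal, fibroblast and mural ones had positive medians without a call, beside a median of 0.0067 over all genes. Of 10 tested ependymal genes, 0 were called in either direction with edgeR and 8 had a positive fold change (median log2 fold change 0.45), and the summed level was 93.2 to 178 CPM in Ttr-high against 76.7 to 136. Of 22 choroid and meningeal fibroblast genes 0 passed and 16 had a positive fold change (median 0.55, 52.2 to 108 CPM against 64.8 to 91.8). Without 0012 their median was -0.33. With all 11 libraries DESeq2 called 1 of them higher and 1 lower, beside 1.37% and 1.49% of all genes. The defining *Dcn* was at 0 to 3.01 CPM in Ttr-high and 0 to 1.47 in Ttr-low, and *Col1a1* at 0 to 0.862 and 0 to 0.875. Of 19 endothelial genes 0 passed (median -0.06, 529 to 973 CPM against 479.7 to 929.9), and of 14 mural genes 0 passed and 10 had a positive fold change (median 0.69, 47.3 to 182 CPM against 45.7 to 108). Border-associated macrophages, which include those of the plexus stroma, are CD11b+ and are bound by the beads. Of their 17 genes 0 passed with edgeR (median 0.08, 612 to 1187 CPM against 844 to 1339). DESeq2 called 1 higher and 1 lower, beside 1.37% and 1.49% of all genes. In Control WT alone 13 of the 17 had a negative fold change and 0 passed (median -0.27), while in *Slc11a2* KD WT alone 4 were higher, beside 3.56% of all genes (median 0.44). The difference between the labels was not tested for this list. Of 21 motile cilia genes 1 was higher, *Drc7* of the dynein regulatory complex, beside 0.385% of all genes, and 18 had a positive fold change. Of the 25 measured cilia genes, 9 had no count in any Ttr-low library. Those of the 9 that were tested passed the filter by the Ttr-high libraries alone, so their sign was fixed. No cilia gene was called without 0012, without 0019, with the *Ttr* threshold at 20 CPM or within either label alone, and DESeq2 called 4, beside 1.37% of all genes. The list's summed level was 20.9 to 32.8 CPM in Ttr-high and 7.71 to 11.9 in Ttr-low, without overlap, while the cilia regulator *Foxj1* overlapped (0 to 3.79 against 0 to 1.01 CPM).

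**Figure D4:**
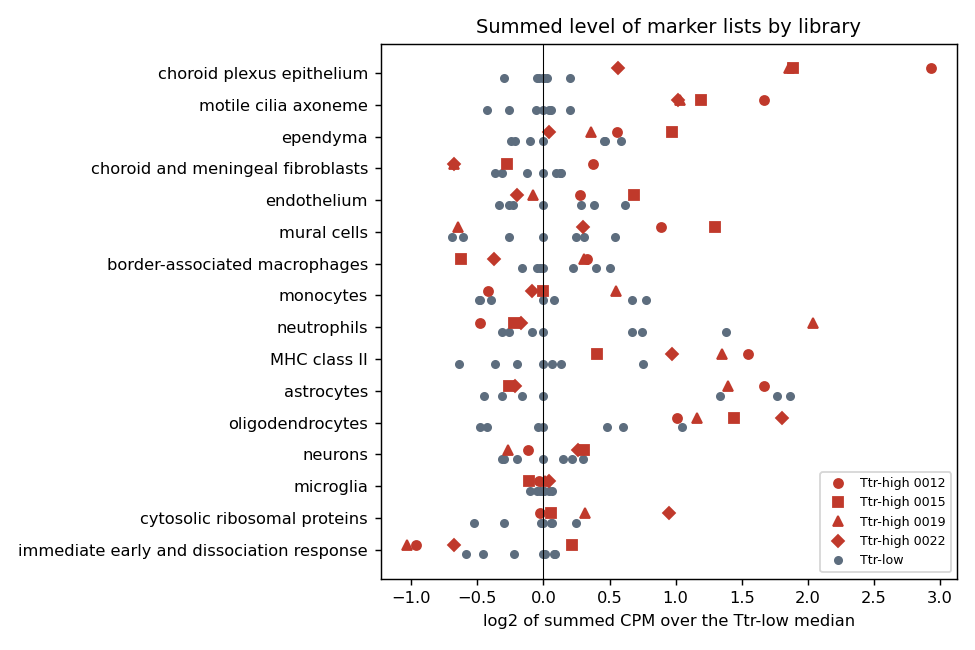
Summed CPM of each marker list in each WT library, as log2 of the ratio to the Ttr-low median; red symbols are the 4 Ttr-high libraries and grey circles the 7 Ttr-low libraries. The choroid plexus and motile cilia lists separate the classes (325 to 1679 against 179 to 253 CPM, and 20.9 to 32.8 against 7.71 to 11.9), while ependymal, fibroblast and microglial sums overlap.

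Single genes of oligodendrocytes and astrocytes were also called. *Mbp*, the myelin basic protein gene, was at 1692, 2485, 2012 and 3282 CPM in 0012, 0015, 0019 and 0022 against 509 to 1687 (1.28 ± 0.25, SE, adjusted p = 0.0351), and 0022, lowest in choroid genes, was highest here. *Plekhb1* and *Qdpr*, which oligodendrocytes express but which are not on their list, were at 388 to 803 and 271 to 532 CPM in Ttr-high and at 100.8 to 317 and 157 to 209 in Ttr-low, again highest in 0022. The call of *Mbp* was lost with library totals only, with the *Ttr* threshold at 20 CPM, within each label alone and in 7 of the 11 fits that left out 1 library (0001, 0002, 0008, 0009, 0015, 0019 or 0022), where adjusted p ran from 0.052 to 0.121. With edgeR *Mbp* was the only one of 12 tested oligodendrocyte genes higher (median log2 fold change 0.36). DESeq2 called 2 of the 12 higher, beside 1.37% of all genes. *Mag* (36.2 to 46.8 against 30.7 to 40.2 CPM) and *Mog* (6.65 to 7.22 against 0.905 to 6.57 CPM), which encode glycoproteins of myelin, did not pass. *Ndrg2*, an astrocyte gene, was the only one of 14 astrocyte genes higher with edgeR, at 23.4 to 36.2 CPM against 14.2 to 18.0 (0.86 ± 0.15, SE, adjusted p = 0.0132). DESeq2 called 2 of the 14 higher, beside 1.37% of all genes. The call of *Ndrg2* was lost with the *Ttr* threshold at 20 CPM (adjusted p = 0.221), in Control WT alone (0.226) and in *Slc11a2* KD WT alone (0.0519), and held in each fit that left out 1 library. The neuronal list had 0 of 15 called.

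Of 23 tested microglial identity genes, 0 passed with edgeR in the 11 libraries (median log2 fold change -0.07). DESeq2 called 1 of them lower, beside 1.49% of all genes. The sum of the list was 82649.6 to 91448 CPM in Ttr-high and 82946 to 93149 in Ttr-low. *P2ry12*, the purinergic receptor of homeostatic microglia, was at 5204 to 5869.9 CPM against 4572 to 7200.2. *Cx3cr1*, the fractalkine receptor gene whose promoter drives the Cre, was at 2230 to 2646 CPM against 2786 to 3448 and did not pass (-0.27, adjusted p = 0.23). In Control WT alone 21 of the 23 had a negative fold change and 0 passed, and in *Slc11a2* KD WT alone 2 were called lower, beside 6.24% of all genes lower. MHC class II genes, which present antigen and are high in macrophages of the brain's borders, had 2 of 9 higher, beside 0.385% of all genes. *H2-Aa* was at 779.8, 284, 745 and 563 CPM in 0012, 0015, 0019 and 0022 and between 97.9 and 469 in Ttr-low, where 0009 was highest, so the classes overlapped (1.70 ± 0.35, SE, adjusted p = 0.0476). *H2-Ab1* overlapped too (267 to 641 against 109 to 375 CPM, 1.55 ± 0.29, SE, adjusted p = 0.03). All 9 had a positive fold change under TMM, DESeq2 size factors and library totals, but with library totals alone 0 were called, and 0 were called in 8 of the 11 fits that left out 1 library each. With the *Ttr* threshold at 20 CPM and in Control WT alone 0 of 9 were called, and in *Slc11a2* KD WT alone 5 of 9 were higher, beside 3.56% of all genes. *Cd74*, the invariant chain, did not pass (adjusted p = 0.142).

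The 11 lower genes had log2 fold changes from -1.49 (*Pou2f2*) to -0.77 (*Zfp654*). *Taf3*, a subunit of TFIID, was at 4.11, 6.30, 4.79 and 4.38 CPM in 0012, 0015, 0019 and 0022 and at 7.54 to 15.9 in Ttr-low (-1.34 ± 0.24, SE, adjusted p = 0.0248). *Pou2f2*, a POU transcription factor, was at 6.53 to 24.2 CPM against 27.0 to 47.8, and *Mycbp2*, a ubiquitin ligase, at 14.1 to 26.1 against 28.5 to 77.2. *Sbno1*, *Ash1l*, *Med13l*, *Tcf4*, *Sox4* and *Zfp654* were also lower without overlap between classes, and *Baz2b* and *Nav3* with an overlap of single libraries. The canonical transcripts of the 11 had a median exon length of 8970 bases, against 2927 for all genes tested and 2517 for the 66 higher, while that of *Pou2f2* was 2364. The part of transcript length in these calls was not tested. The number of genes lower went from 0 without 0019 to 93 without 0012 and 108 without 0015.

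Measures of library state varied within the Ttr-high class. The ribosomal protein genes summed to 197193 CPM in 0022, above every other WT library (70891 to 126936), and 79 of 83 had a positive fold change although 0 were called. Their median was 0.43 over all WT libraries, -0.07 within Control WT and 0.93 within *Slc11a2* KD WT, where 60 of 82 were called higher, beside 3.56% of all genes. Immediate early genes, which tissue dissociation induces, summed to 11013, 11547 and 14072 CPM in 0019, 0012 and 0022 and to 26149 in 0015, against 15001 to 23996 in Ttr-low. Of the 23 tested, 21 had a negative fold change (median -0.57) and 0 were called with edgeR. DESeq2 called 1 lower, beside 1.49% of all genes. Without 0015, 11 were called lower, beside 0.637% of all genes. In *Slc11a2* KD WT alone 9 were called lower, beside 6.24% of all genes, and in Control WT alone 0 (median -0.05). *mt-Nd1* and *mt-Nd2*, of mitochondrial complex I, were higher (2860.2 to 4739 and 1365 to 1503 CPM against 1813 to 2765 and 833 to 1175). *mt-Co3* was called but very uneven, at 67.2, 1.01, 0.663 and 182 CPM. The part of these states in the choroid differences was not tested.

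Fitted within one label, fewer choroid genes could be tested. In the 6 Control WT libraries alone 6 of 27 choroid genes were higher and 0 lower, beside 0.105% of all genes higher. In the 5 *Slc11a2* KD WT libraries alone 10 of 30 were higher and 0 lower, beside 3.56% of all genes. A fit of Control WT alone on the genes of the 11-library filter, chosen after seeing the data, called 26 of 43 higher and 0 lower, beside 0.339% of all genes. That filter lets through genes by their counts in the Ttr-high libraries. Whether the Ttr-high difference depended on knockdown was tested too, and DESeq2 called far more genes there than edgeR (count given at the end). With edgeR that test called 4 of 17126 genes (0.0234%), none of them on the choroid list. Without 0019 that count was 1426 and without 0012 it was 157, but each of these fits has 1 Ttr-high library left under one label and assumes that it varies like the other groups. *Rps7-ps3*, a processed pseudogene whose reads may not be separable from *Rps7*, was at 118 and 175 CPM in 0019 and 0022 and at 3.62 to 6.79 in the other WT libraries. *Kmt2a*, *Ankrd17* and *Smarcc2* were lower in 0019 and 0022 than in all other WT libraries.

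The labelled comparisons carry these libraries too. *Slc11a2* KD WT against Control WT, with 2 Ttr-high libraries on each side, called 0 of 17126 genes with edgeR (366 at an unadjusted p under 0.05, and 3 adjusted calls with DESeq2) and 1 gene once the 4 were left out. Control APP/PS1 against Control WT has Ttr-high libraries on the WT side only. There, 16 of 31 tested choroid genes were lower in Control APP/PS1 and 0 higher, beside 7.28% of all genes lower, and *Enpp2* differed by -6.71 ± 1.5 (log2, SE, adjusted p = 0.0052). Without 0012 and 0015, 0 of 20 choroid genes were called with edgeR, beside 6.06% of all genes lower. *Enpp2* then differed by -1.02 ± 0.47 (SE, adjusted p = 0.174). Those 2 libraries were chosen by *Ttr*, a product of the same epithelium. Their 25 choroid genes summed to 576 and 272 CPM, against 1.61 to 5.84 in the other Control WT libraries. Leaving them out therefore takes such calls away in advance, and fewer choroid genes passed the filter. The count of 0 describes the 2 libraries and tests no label.

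Of the 12 APP/PS1 libraries, which the rule did not use, *Slc11a2* KD 0018, 0020, 0021 and 0023 stood apart in these genes, and *Slc11a2* KD 0004 lay with the Controls. Scaled among themselves, *Enpp2* was at 76.0, 78.3, 15.9 and 72.4 CPM in *Slc11a2* KD APP/PS1 0018, 0020, 0021 and 0023, at 1.59 in 0004, and at 0.875 to 3.43 in the 7 Control APP/PS1 libraries. *Ttr* was at 161, 199, 52.1, 343 and 0.234 CPM of the library total in those 5 and at 4.75 or less in the Controls. Control 0010 was left out of the comparison by label. In *Slc11a2* KD APP/PS1 against the other Control APP/PS1 libraries, 0 of 42 choroid genes were called with edgeR (median log2 fold change 4.15). The smallest adjusted p of the list was 0.199, for *Enpp2* and *Kl*. DESeq2 called 15 higher, beside 0.313% of all genes. With 1 library left out at a time, 0 were called in each fit but the one without 0004, which had 34 of 42 higher and 0 lower, beside 10.4% of all genes higher. Since 0004 is the *Slc11a2* KD library that was low in these same genes, that count describes the other 4 and is no test of the label. The 4 that stood apart are numbered in the run 18 to 23, which holds no Control, and 0004 is the one *Slc11a2* KD APP/PS1 library outside it. The part of the number run in the difference was not tested. *Igfbp2* took 13.7%, 13.4%, 15.3% and 18.0% of the 25-gene counts in 0018, 0020, 0021 and 0023, and *Folr1* 8.38%, 15.9%, 10.4% and 12.3%. Of these, *Igfbp2* in 0018, 0020 and 0023 and *Folr1* in 0018, 0020 and 0023 lay outside the range of the 4 Ttr-high WT libraries. By Wilson 95% intervals, *Folr1* in 0020 (14.7 to 17.2) lay above those of Ttr-high WT (8.83 to 12.4). The intervals of the others overlapped those of Ttr-high WT. In 0021, where the 25 genes summed to 16.5 CPM, *Kcne2*, *Clic6*, *Car12*, *Cldn2*, *Tmem72*, *Slc29a4* and *Slc4a5* had no count, and *Slc16a8* took 19.3%, against 2.34% to 3.49% in Ttr-high WT.

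**Figure D5:**
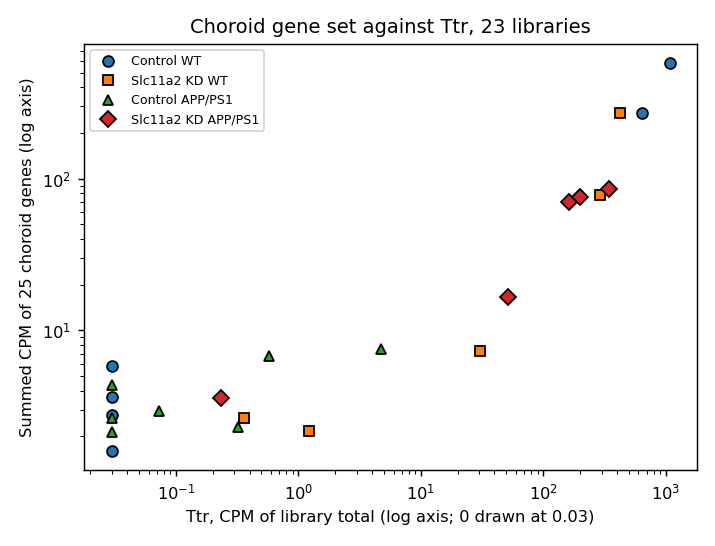
Summed CPM of the 25 choroid genes against *Ttr* in CPM of the library total (both log axes) in the 23 libraries, by group, with *Ttr* of 0 drawn at 0.03. Libraries with *Ttr* above 50 CPM have sums from 16.5 to 576 CPM, and all others lie between 1.61 and 7.52 CPM; the 25 genes were chosen partly from the Ttr-high WT libraries.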

How the data were processed

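RNA of hippocampal CD11b+ cells was measured in 23 libraries, of which 11 WT entered the main comparison. The authors trimmed reads (Trim Galore 0.6.7 per the submitters' processing notes), aligned them with STAR to mm39, counted uniquely mapped reads per gene against a GENCODE annotation, and deposited raw counts for 18876 genes, unnormalized. The counts as deposited were used, and the table of normalized values was not. The filter stated by the study was kept (5 counts or more in 3 or more fitted libraries). It left 17126 genes. Counts were scaled by TMM and fitted with edgeR 4.0.16 (R 4.3.3, quasi-likelihood test, knockdown as a term, two-sided, Benjamini-Hochberg over all genes tested). DESeq2 1.42.0 was an alternative, as were other scalings, no filter, another *Ttr* threshold, each label alone and each library left out. Intervals of shares are Wilson 95%, for counting error only. On simulated counts of this comparison with 200 of 15869 genes changed by 1.5 (log2), edgeR recovered 94 with 5 false calls and DESeq2 106 with 44.

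The libraries, the gene lists and the tests were chosen with earlier results of these data known. Genes were named by rule: of called genes with no overlap between classes and a mean of at least 1 CPM, the 12 highest and 8 lowest fold changes; the 12 with the largest excess CPM; and, per list, the 2 most abundant and the 2 most changed members. Genes named in the text outside that rule were chosen after their values were seen. The study calls the samples of a group biological replicates. The labels give no animal or batch, so part of the spread between libraries may be technical. Positions and exon lengths are from GENCODE on GRCm39, and the promoter windows were read from that genome in place of the promoter table named in the design.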

Additional observations from a re-analysis of the deposited data

Results flagged for a closer look

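In 3 of 68 sums of a gene list within Ttr-high or Ttr-low, a library lay far from the others of its class, where chance gives about 1 in 20. The neutrophil list summed to 563 CPM in Ttr-high *Slc11a2* KD WT 0019 and to 98.2 to 122 in the other 3 Ttr-high libraries. T and NK cell genes summed to 5.17 CPM in Ttr-high 0022, against 16.9 to 18.8 in the other 3, and to 38.5 CPM in Ttr-low Control WT 0009, against 5.5 to 10.7 in the other 6.

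The Ttr-high difference itself differed between *Slc11a2* KD WT and Control WT in 4 genes (edgeR interaction term, difference on the log2 scale as KD minus Control). It was 4.43 for *Rps7-ps3* (adjusted p = 0.000471), -2.35 for *Ankrd17* (adjusted p = 0.0298), -1.46 for *Smarcc2* and -2.95 for *Kmt2a* (both adjusted p = 0.042). *Rps7-ps3* was at 66.9, 89.9 and 126 CPM in Control APP/PS1 0005, 0007 and 0011 and at 5.21 to 10.7 in the other 4 Control APP/PS1 libraries. In *Slc11a2* KD APP/PS1 it was at 116 to 198 CPM in 0018, 0020, 0021 and 0023 and at 4.45 in 0004.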

How the results depend on the processing

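Genes higher in Ttr-high numbered 66, and 235 with DESeq2, 18 with the threshold at 20 CPM (which adds 0001), 16 in Control WT alone under its own filter and 531 in *Slc11a2* KD WT alone. Leaving out 1 library gave 38 (without 0019) to 76 (without 0015). Genes lower numbered 11, and 256 with DESeq2, 4 with library totals only, 21 without the filter, 23 without the knockdown term, 0 with the threshold at 20 CPM, 0 in Control WT alone under either filter, 931 in *Slc11a2* KD WT alone and 6 with an absolute log2 fold change above 1. Leaving out 1 library gave 0 (without 0019) to 108 (without 0015). Fits of Control WT alone over the genes of the 11-library filter were chosen after seeing the data. The interaction with knockdown called 4 genes, 1386 with DESeq2 and 1 to 1426 with 1 library left out. *Slc11a2* KD WT against Control WT called 0 genes, 1 without the Ttr-high libraries and 3 with DESeq2. Choroid genes called in *Slc11a2* KD APP/PS1 against Control APP/PS1 numbered 0, 15 with DESeq2, and 0 to 34 with 1 library left out, 34 being without 0004. In Control APP/PS1 against Control WT they numbered 16, and 0 without the Ttr-high libraries, which held most of these transcripts in Control WT. Of 46 genes followed through 804 combinations of gene and alternative, the direction held in all of them. Of these 46, 44 were called in the main fit and every alternative reuses its libraries, so directions had little room to reverse. The fits with DESeq2 size factors and without the filter were not followed gene by gene. The 44 that were called kept the call in 543 of 769 combinations and lost it in 226. The causes of these moves were not tested. No paired analysis was possible because each library number occurs once and no number is shared between groups. With no count in a Ttr-low library, a level of up to 3 counts there (at most 0.0964 CPM) is allowed.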
